A study of Mus musculus with 6 samples.

Results

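The immediate-early transcription factors described here are 10 genes of 3 families: the orphan nuclear receptors Nr4a1, Nr4a2 and Nr4a3, the zinc-finger factors Egr1, Egr2 and Egr3, and the AP-1 subunits Fos, Fosb, Jun and Junb. They were taken by symbol from the 19938 genes of an Affymetrix mouse array that a single-gene probe set measures, and each had exactly 1 such probe set, so no choice between probe sets was needed. Nr4a3, Nr4a2 and Egr2 were singled out because earlier results of these arrays showed them to differ between the populations, so their values are given as a description without a p-value. The question was whether the other 7 factors differed in the same way. Each value is a log2 signal made with RMA, which brings the arrays to one distribution and combines the probes aimed at a transcript. It serves to compare populations for a given gene and not genes with each other.

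The mice were C57BL/6J, 6 to 10 weeks old and male by their labels. Their bone marrow was cultured for 7 days and sorted into 3 populations of 2 arrays each. GM-BMDC, the dendritic cells, were the MHCIIhighF4/80low cells of cultures with 25 ng/ml GM-CSF. GM-BMM, the macrophages of those same GM-CSF conditions, were the MHCIIlowF4/80high cells. M-BMM were CD11b+F4/80+ macrophages grown in 20% L cell conditioned medium, which served as the source of M-CSF and is not the pure factor. The labels call the 2 arrays of a group biological replicates and do not say how many mice or cultures stand behind each, so p-values measure the spread between arrays.

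Immediate-early genes are transcribed within minutes of a signal without the need for new protein, mainly through ERK kinases acting on the serum response factor SRF and through kinases acting on CREB, and most of their RNAs are short-lived. NR4A proteins bind DNA without a known obligatory ligand, EGR proteins bind GC-rich sites and recruit the NAB corepressors that limit them, and FOS proteins need a JUN partner to bind DNA whereas JUN can also pair with itself. In mouse myeloid cells Nr4a1 is known for its need in Ly6C-low monocytes, Nr4a3 for its need in the Ccr7-guided migration of dendritic cells, and Egr1 and Egr2 for favouring macrophage over neutrophil fate.

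Some arrays went against the label male. Xist, transcribed from the inactive X chromosome of female cells, measured 11.66 and 10.68 in GM-BMDC. It measured 11.58 and 4.93 in GM-BMM, against 4.53 and 4.80 in M-BMM (replicates 1 and 2). The Y-linked Eif2s3y measured 3.94 and 8.80 in GM-BMDC, against 3.66 and 9.10 in GM-BMM and 9.32 and 9.17 in M-BMM. Both GM-CSF arrays numbered 1 were thus high in Xist and low in Eif2s3y, and replicate 2 of GM-BMDC was high in both. Results are therefore also given without both GM-CSF arrays numbered 1, which leaves 1 array in GM-BMDC and in GM-BMM, assumed to vary like those of M-BMM. The GM-BMDC array left is still high in Xist (10.68, against 4.93 in the GM-BMM array left). This removal therefore does not take the Xist difference out of comparisons with GM-BMDC. The labelled cell types were checked by their markers: all 6 conventional and all 9 mature migratory dendritic cell genes rose in GM-BMDC against GM-BMM, and 2 of 6 macrophage genes fell. Without GM-BMDC replicate 1 these counts were 5, 7 and 1, and without GM-BMDC replicate 2 they were 6, 8 and 4. The call of Ccl17 ended in 6 of 16 alternatives. B cell genes moved with GM-BMDC too: 2 of 3 measured markers rose against GM-BMM (Cd79a 2.45 and Ms4a1 1.72 log2 units), the log2 of the 3 genes' summed signal was 7.80 to 8.55 in GM-BMDC, against 6.69 to 6.82 in GM-BMM and 6.94 to 6.97 in M-BMM, and no marker mean was low in GM-BMDC. Of the 7 mast cell and basophil markers 1 (Kit) rose in GM-BMDC against GM-BMM and 2 (Kit and Gata2) against M-BMM, while Cpa3, Ms4a2, Fcer1a and Mcpt8 had means in GM-BMDC below 5.04, the 25th percentile of all values, which is called low here. The part of B cells in the results below was not tested.

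The start regions of 4 of the factors are shown first, 3 because their RNA differed most between the populations and Fos because it ran the other way. Each is the 250 bases before the RefSeq start of the gene on GRCm38.p6, 5′ to 3′ on the gene's strand. Capitals mark TGACG on either strand (CGTCA as printed), the core of the cAMP response element (CRE) that CREB binds, and in Egr2 also a CArG box, the site of SRF. The Egr2 sequence is the first of 3 overlapping windows among its 5 annotated starts.
Nr4a3, chr4:48045055-48045304, plus strand: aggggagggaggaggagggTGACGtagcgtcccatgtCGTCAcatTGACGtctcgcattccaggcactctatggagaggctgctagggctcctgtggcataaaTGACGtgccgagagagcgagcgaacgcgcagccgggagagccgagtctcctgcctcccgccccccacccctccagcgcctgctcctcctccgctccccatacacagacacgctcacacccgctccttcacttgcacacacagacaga
Nr4a2, chr2:57124004-57124253, minus strand: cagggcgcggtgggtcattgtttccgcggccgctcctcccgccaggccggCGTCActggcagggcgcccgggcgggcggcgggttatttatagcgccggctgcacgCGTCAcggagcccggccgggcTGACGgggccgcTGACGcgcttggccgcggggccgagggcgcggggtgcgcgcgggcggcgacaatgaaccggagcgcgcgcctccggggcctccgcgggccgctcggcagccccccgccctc
Egr2, chr10:67537619-67537868, plus strand: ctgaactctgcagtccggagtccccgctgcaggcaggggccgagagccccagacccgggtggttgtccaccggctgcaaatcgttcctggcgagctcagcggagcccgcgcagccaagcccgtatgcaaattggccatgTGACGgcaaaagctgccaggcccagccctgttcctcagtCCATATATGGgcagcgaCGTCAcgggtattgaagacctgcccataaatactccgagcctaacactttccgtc
Fos, chr12:85473640-85473889, plus strand: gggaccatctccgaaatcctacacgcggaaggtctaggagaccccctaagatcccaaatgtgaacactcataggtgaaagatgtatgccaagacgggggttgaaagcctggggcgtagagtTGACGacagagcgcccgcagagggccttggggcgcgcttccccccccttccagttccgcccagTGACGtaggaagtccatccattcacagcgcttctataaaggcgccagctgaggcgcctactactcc
Nr4a3 held 4 CRE cores, whose first bases lie at -231, -213, -205 and -147 from the start, and Nr4a2 also held 4, at -200, -144, -123 and -111. Egr2 held 2, at -111 and -55, with its CArG box between them at -72. Fos held 2, at -129 and -66, and a TATA core (TATAAA) at -33. That core was also found in Nr4a2, 2 of 8 factors in all, against 12.4% of windows.

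Windows of 8 of the 10 factors were searched. No window was found for Egr3. Factor windows on chromosome 18, where Egr1 lies, were left out of the search, though windows of that chromosome stayed among all windows. The CRE core occurred in 7 of the 8, all but Jun, against 17.8% of the 32851 start windows in the RefSeq table and 19.8% of genes with a match in any window. A CArG box occurred in 1 of the 8 (Egr2), against 1.47% of windows, and the full palindrome TGACGTCA, which contains the core on both strands, in 0 of 8, against 1.55%. The AP-1 site TGANTCA (0 of 8, against 6.75%), the Egr site GCGTGGGCG (0 of 8, against 0.536%) and the NGFI-B response element AAAGGTCA bound by NR4A proteins (0 of 8, against 1.34%) were also searched on both strands. An NF-kappaB site was found in Fos and Fosb, 2 of 8, against 3.90% of windows. Motifs that contain CG are more frequent in GC-rich sequence, and the members' windows held 54% to 80% G and C, against a median of 52.4% over all windows. Nr4a3, Nr4a2 and Egr2 thus shared the CRE core with Fos, Fosb, Junb and Nr4a1. A match is a string of letters and was not shown to be a site in these cells. Sequence beyond these 250 bases was not searched, so a gene without a match here may hold one further away.

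**Figure D1:**
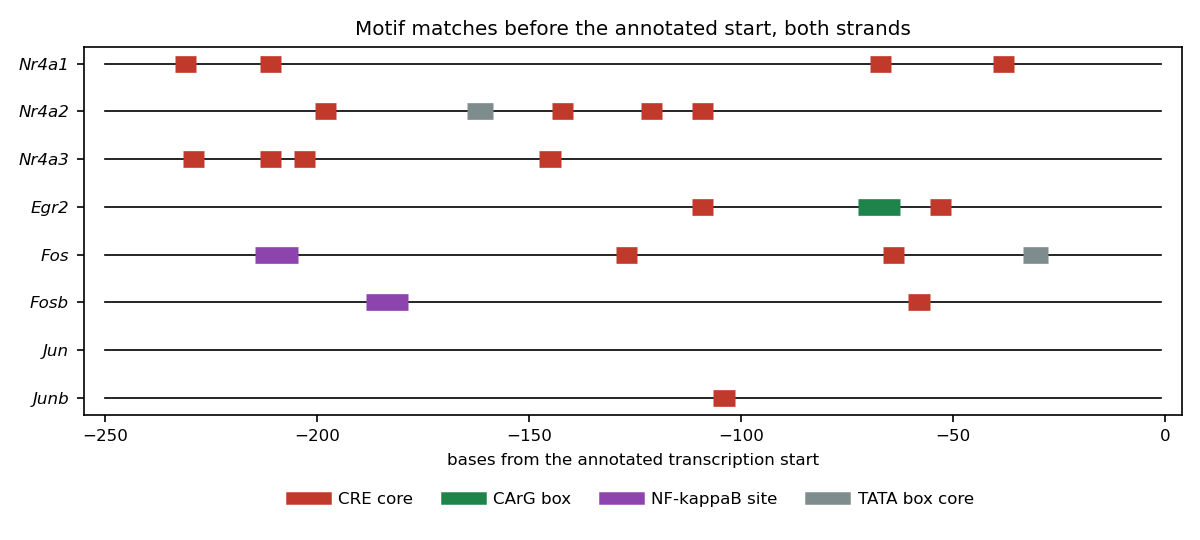
Positions of motif matches on both strands in the 250 bases before the annotated start of 8 factors (x axis, bases from the start; 1 line per gene; colours mark the motif). Nr4a1, Nr4a2 and Nr4a3 each hold 4 CRE cores, Egr2 holds 2 around a CArG box, and Jun holds none.

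Nr4a3 and Nr4a2 were high in GM-BMDC alone, Egr2 was high in both GM-CSF populations, and the other 7 factors spanned less between population means, with Fos and Jun lowest in GM-BMDC. The 10 factors thus did not share a direction. In GM-BMDC against GM-BMM, 4 of the 10 factors passed limma's threshold of an adjusted p under 0.05, 2 higher and 2 lower, where 10.4% of all genes passed (4.69% higher and 5.74% lower). In GM-BMM against M-BMM it was 1 factor, higher, where 6.19% of all genes passed (3.62% higher and 2.57% lower). In GM-BMDC against M-BMM it was 5 higher and 1 lower, where 16.7% of all genes passed (7.76% higher and 8.9% lower). These counts include the 3 factors chosen for their differences, so nothing is read from them. Of the other 7, 0 were higher and 2 lower (Fos and Jun) in the first comparison, 0 and 0 in the second by limma (1, Egr1, at an unadjusted p under 0.05), and 2 higher (Nr4a1 and Egr3) and 1 lower (Jun) in the last. The share of all genes under the unadjusted threshold was not taken, so nothing is read from that 1. The arrays of GM-BMDC lay wholly above those of GM-BMM in 5 factors and wholly below in 4 (51.3% of all genes did not overlap, 26.7% higher and 24.6% lower). GM-BMM lay wholly above M-BMM in 6 and below in 0 (49.8% of all genes, 22.6% higher and 27.2% lower), and GM-BMDC lay wholly above M-BMM in 6 and below in 2 (56.4%, 26.6% higher and 29.8% lower). These counts of arrays lying apart also include the 3 factors chosen for their differences, so nothing is read from them either. The comparisons share arrays, so a factor that is apart in GM-BMDC counts in the first and the last.

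**Figure D2:**
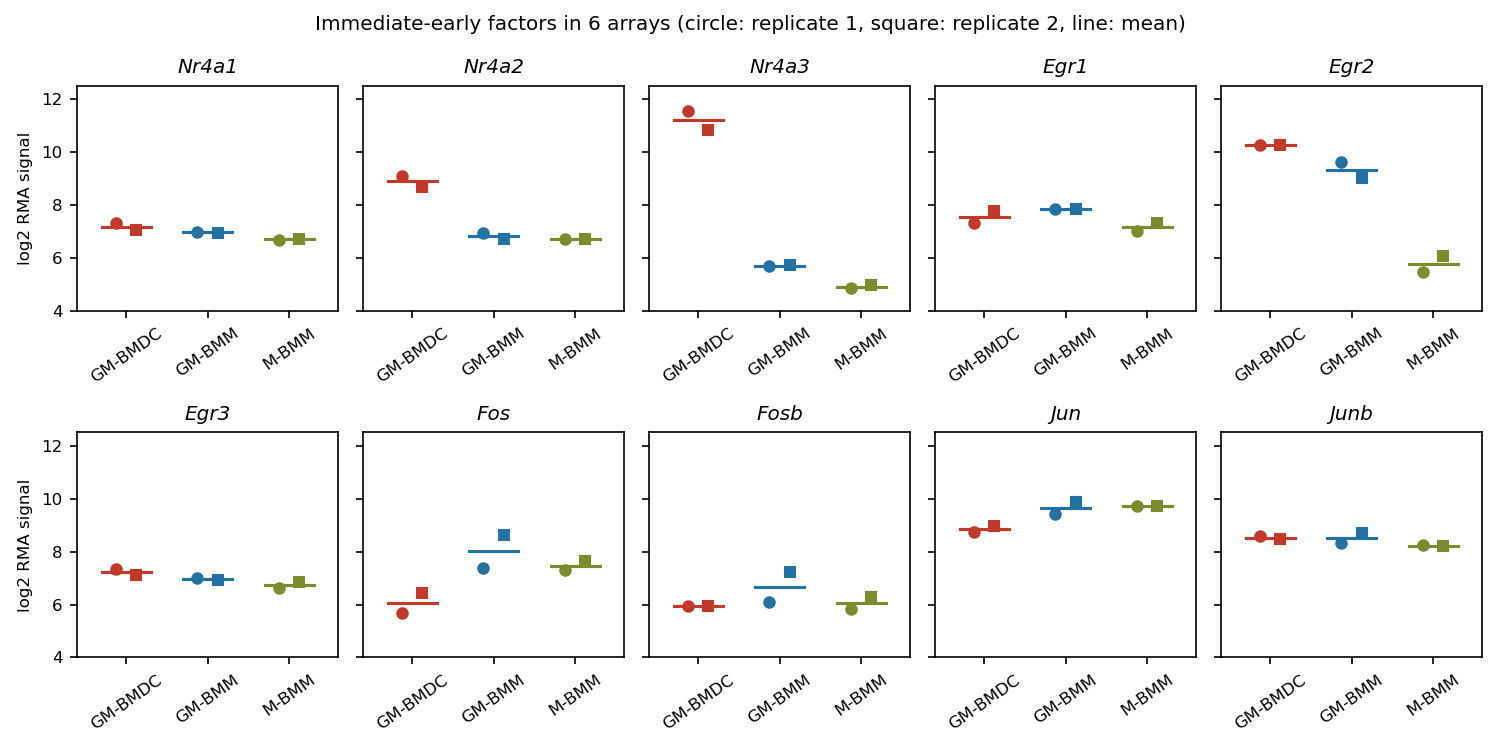
Log2 RMA signal (y axis, the same scale in each panel) of the 10 factors in GM-BMDC, GM-BMM and M-BMM (x axis); circles are replicate 1, squares replicate 2 and lines the mean of 2 arrays. Nr4a3 lies between 10.85 and 11.57 in GM-BMDC and under 6 elsewhere, Egr2 lies above 9 in both GM-CSF populations and at 5.46 and 6.08 in M-BMM, and Fos is lowest in GM-BMDC.

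Among the NR4A receptors, Nr4a3 measured 11.57 and 10.85 in GM-BMDC, against 5.70 and 5.73 in GM-BMM and 4.87 and 4.97 in M-BMM. GM-BMDC lay far above the others, the 3 populations did not overlap, and the M-BMM mean was low, so a fold against it is a fold against a signal not shown to exceed background. The difference between GM-BMDC and GM-BMM was 5.50 ± 0.22 log2 units (45.2-fold; SE from limma, n = 2 arrays in each group), which put Nr4a3 at place 2 of all genes when ordered from the highest. Against M-BMM it was 6.29 ± 0.22, at place 8, and GM-BMM exceeded M-BMM by 0.79 ± 0.22 (1.73-fold). The 9 mature migratory dendritic cell markers were also higher in GM-BMDC: the log2 of their summed signal was 14.55 to 14.89 in GM-BMDC, 10.49 to 11.57 in GM-BMM and 10.49 to 10.53 in M-BMM, none had a low mean, and their part in the result was not tested. Their sums overlapped between GM-BMM and M-BMM, where 2 of the 9 passed limma's threshold as higher, 1 as lower (Cd83, -1.58 log2 units) and 6 did not pass. In such sorted bulk samples, fewer cells that contain the RNA and less RNA per cell cannot be told apart. Without both GM-CSF arrays numbered 1, the differences were 5.12, 5.93 and 0.81 log2 units in the same order.

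Nr4a2, known from midbrain dopamine neurons, had the same direction at a smaller size. It measured 9.10 and 8.68 in GM-BMDC, against 6.93 and 6.72 in GM-BMM and 6.72 and 6.73 in M-BMM. Only the GM-BMDC arrays stood apart, by 2.07 ± 0.16 log2 units over GM-BMM (4.19-fold) and 2.17 ± 0.16 over M-BMM (4.50-fold). The macrophage populations overlapped, with a difference of 0.10 ± 0.16. With both GM-CSF arrays numbered 1 left out, GM-BMDC exceeded GM-BMM by 1.96 and M-BMM by 1.96 log2 units.

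Nr4a1, the receptor also called Nur77, differed far less. Its values were 7.31 and 7.07 in GM-BMDC, against 7.00 and 6.96 in GM-BMM and 6.68 and 6.72 in M-BMM, without overlap between the populations. It rose by 0.48 ± 0.12 log2 units in GM-BMDC over M-BMM (1.40-fold, limma adjusted p = 0.0347). Between GM-BMDC and GM-BMM the difference was 0.21 ± 0.12 (95% interval -0.08 to 0.49, adjusted p = 0.385 by limma), and between GM-BMM and M-BMM 0.28 ± 0.12 (-0.01 to 0.56, adjusted p = 0.280 by limma). The call against M-BMM ended without GM-BMDC replicate 1 (0.36, limma adjusted p = 0.162), without M-BMM replicate 1 (0.46, adjusted p = 0.181) or replicate 2 (0.51, adjusted p = 0.135), without both GM-CSF arrays numbered 1 (0.36, adjusted p = 0.139) and with Y-linked expression (averaged over 3 genes) in the model (0.40, adjusted p = 0.145). The interval against GM-BMM excludes a difference of the size seen in Nr4a2.

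Among the EGR factors, Egr2, known for hindbrain patterning and myelination as well as in macrophages, measured 10.26 and 10.28 in GM-BMDC, against 9.64 and 9.03 in GM-BMM and 5.46 and 6.08 in M-BMM. Both GM-CSF populations lay more than 2 log2 units above M-BMM in every array, and GM-BMDC lay above GM-BMM without overlap. GM-BMDC exceeded M-BMM by 4.50 ± 0.25 log2 units (22.7-fold), GM-BMM exceeded M-BMM by 3.56 ± 0.25 (11.8-fold), and GM-BMDC exceeded GM-BMM by 0.94 ± 0.25 (1.92-fold). Egr2 stood at place 34 from the highest of all genes in GM-BMM against M-BMM and at place 44 in GM-BMDC against M-BMM. Without both GM-CSF arrays numbered 1 these differences were 4.51, 3.26 and 1.26. Its pattern thus differed from that of Nr4a3. The larger step of Egr2 lay between GM-BMM and M-BMM, and that of Nr4a3 between GM-BMDC and GM-BMM. As GM-BMM and M-BMM differ in both medium and sort gate, these cannot be told apart in the step of Egr2.

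The relatives of Egr2 spanned less than Egr2 itself. Egr1 measured 7.32 and 7.78 in GM-BMDC, against 7.84 and 7.86 in GM-BMM and 7.04 and 7.34 in M-BMM. It was highest in GM-BMM, and GM-BMDC and M-BMM overlapped. No comparison passed for Egr1: -0.30 ± 0.18 in GM-BMDC against GM-BMM (95% interval -0.71 to 0.12), 0.66 ± 0.18 in GM-BMM against M-BMM (0.24 to 1.07) and 0.36 ± 0.18 in GM-BMDC against M-BMM (-0.06 to 0.78), with limma adjusted p = 0.398, 0.0830 and 0.244. The difference of GM-BMM from M-BMM passed in a fit of the 2 groups compared (0.66, limma adjusted p = 0.0423). It also passed with the replicate number as a block (0.66, limma adjusted p = 0.0494). Leaving out either GM-BMDC array gives that same 2-group fit for this comparison, so it is not a further check.

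Egr3, known from muscle spindles and lymphocytes, measured 7.35 and 7.13 in GM-BMDC, against 7.01 and 6.92 in GM-BMM and 6.62 and 6.84 in M-BMM, and lay closest to Nr4a1 among the 45 pairs of factors, with a root mean square difference of 0.0594 log2 units between mean-centred values over 6 arrays. The population means of Egr3 spanned only 0.51 and those of Nr4a1 0.48, and small spans keep this distance small. The populations did not overlap in Egr3. It rose by 0.51 ± 0.13 log2 units in GM-BMDC over M-BMM (1.43-fold, limma adjusted p = 0.0386), and the 2 smaller steps were 0.28 ± 0.13 (GM-BMDC against GM-BMM, adjusted p = 0.268 by limma) and 0.23 ± 0.13 (GM-BMM against M-BMM, adjusted p = 0.428 by limma). The call ended without GM-BMDC replicate 1 (0.40, limma adjusted p = 0.182), without M-BMM replicate 1 (0.41, adjusted p = 0.232) or replicate 2 (0.62, adjusted p = 0.0845), without both GM-CSF arrays numbered 1 (0.40, adjusted p = 0.140), with the Y-linked covariate (0.42, adjusted p = 0.158) and under both other scalings (0.49, adjusted p = 0.0536, and 0.46, adjusted p = 0.0511).

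Among the AP-1 subunits, Fos ran against the NR4A receptors. It measured 5.70 and 6.45 in GM-BMDC, against 7.39 and 8.63 in GM-BMM and 7.30 and 7.65 in M-BMM. Every macrophage array lay above every GM-BMDC array, the macrophage populations overlapped, and the GM-BMM arrays lay 1.24 log2 units apart. Fos fell by 1.94 on the log2 scale in GM-BMDC against GM-BMM (SE 0.40, 3.83-fold, limma adjusted p = 0.0240), at place 138 from the lowest of all genes. Against M-BMM the difference was -1.40 ± 0.40 (limma adjusted p = 0.0550), and between GM-BMM and M-BMM 0.54 ± 0.40 (limma adjusted p = 0.566).

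The calls of Fos depended on single arrays of the groups compared and on how the spread was estimated. Against GM-BMM the call ended without GM-BMM replicate 2 (-1.32) and without GM-BMDC replicate 1 (-1.56). It also ended in a fit of the 2 groups compared (-1.94, limma adjusted p = 0.0688) and with a trended, robust variance (adjusted p = 0.0694). Leaving out either M-BMM array gives that same 2-group fit for this comparison: the difference stays -1.94 and only the estimate of the spread changes. Against M-BMM, Fos passed in a fit of the 2 groups compared (-1.40, limma adjusted p = 0.0104). Leaving out either GM-BMM array gives that same fit for this comparison. Fos also passed there with the replicate block (limma adjusted p = 0.00463) or the crossed one (adjusted p = 0.0376). So it did with array medians set equal (-1.46, limma adjusted p = 0.0481) and without genes of low mean (adjusted p = 0.0488). Without both GM-CSF arrays numbered 1, Fos was -2.19 against GM-BMM and -1.03 against M-BMM, and GM-BMM was then 1.16 above M-BMM. That fit takes its spread from M-BMM alone, where the Fos arrays lay 0.35 apart, against 1.24 in GM-BMM and 0.75 in GM-BMDC. It therefore cannot decide whether Fos passes. Without GM-BMM replicate 2 the difference between GM-BMM and M-BMM was -0.08.

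Jun, the subunit that can act without a FOS partner, followed Fos at a smaller size. Its values were 8.75 and 8.96 in GM-BMDC, against 9.41 and 9.87 in GM-BMM and 9.72 and 9.74 in M-BMM. GM-BMDC lay below every macrophage array and the macrophage populations overlapped. Jun fell by 0.78 on the log2 scale in GM-BMDC against GM-BMM (SE 0.17, 1.72-fold, limma adjusted p = 0.0272) and by 0.87 against M-BMM (SE 0.17, 1.83-fold, limma adjusted p = 0.0119), and differed by -0.09 ± 0.17 between GM-BMM and M-BMM (limma adjusted p = 0.860). Against GM-BMM the call ended without GM-BMDC replicate 1 (-0.68), without GM-BMM replicate 2 (-0.55) and in a fit of the 2 groups compared (-0.78). Leaving out either M-BMM array gives that same 2-group fit for this comparison, with the difference unchanged. Against M-BMM it ended without GM-BMDC replicate 1 (-0.77, limma adjusted p = 0.0720) or M-BMM replicate 1 (-0.88, adjusted p = 0.0932) or replicate 2 (-0.86, adjusted p = 0.0888). Without both GM-CSF arrays numbered 1, Jun differed by -0.91 from GM-BMM and by -0.77 from M-BMM.

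Fosb, a FOS relative, measured 5.93 and 5.94 in GM-BMDC, against 6.10 and 7.22 in GM-BMM and 5.81 and 6.27 in M-BMM. GM-BMM replicate 2 stood above the other 5 arrays. The differences were -0.73 ± 0.33 for GM-BMDC against GM-BMM (limma adjusted p = 0.253), 0.62 ± 0.33 for GM-BMM against M-BMM (adjusted p = 0.393) and -0.11 ± 0.33 for GM-BMDC against M-BMM (adjusted p = 0.887). Without GM-BMM replicate 1 the first was -1.29 and the second 1.18. With the first array of both GM-CSF groups removed, these were -1.28 and 1.18. Both fits leave only replicate 2 in GM-BMM, so the gap between its arrays no longer counts in the spread.

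Junb, generally a weaker activator than Jun, was the least variable of the 10. It measured 8.59 and 8.46 in GM-BMDC, against 8.31 and 8.71 in GM-BMM and 8.25 and 8.21 in M-BMM. The GM-CSF populations overlapped, and M-BMM lay below both. Its differences were 0.01 ± 0.15 for GM-BMDC against GM-BMM (95% interval -0.34 to 0.36), 0.28 ± 0.15 for GM-BMM against M-BMM (-0.07 to 0.64) and 0.30 ± 0.15 for GM-BMDC against M-BMM (-0.06 to 0.65), with limma adjusted p = 0.979, 0.378 and 0.259.

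**Figure D3:**
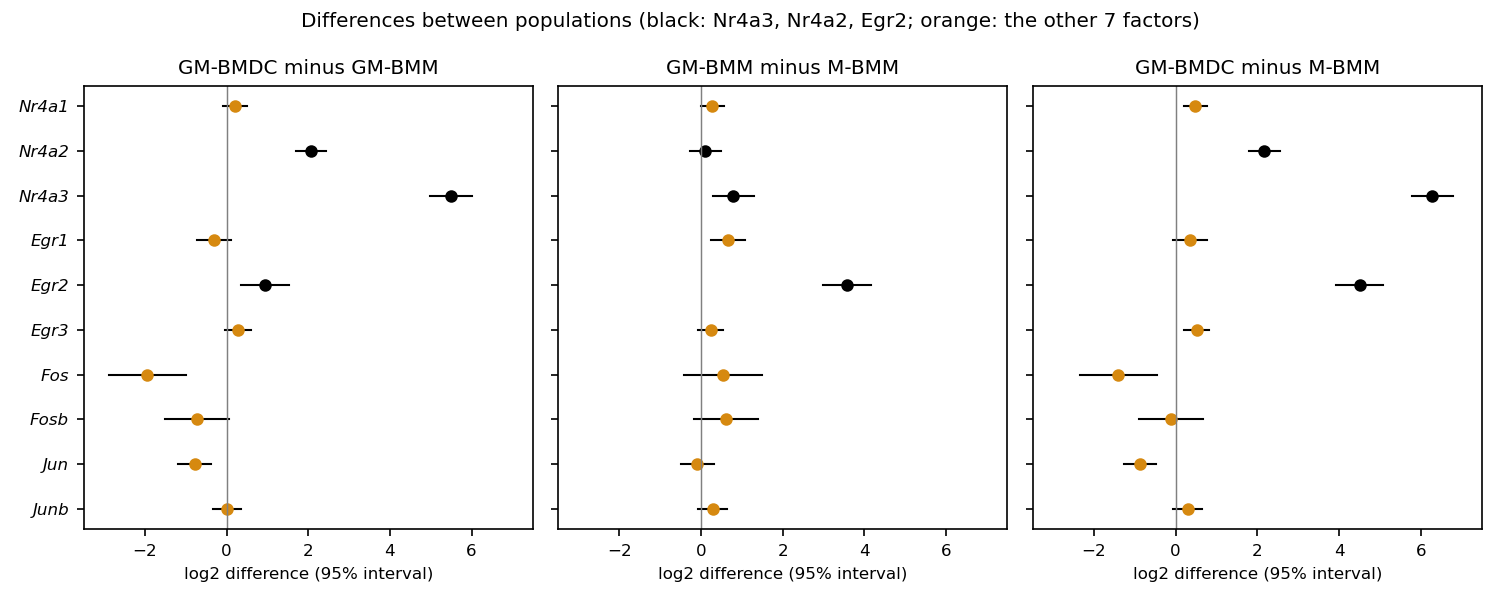
Log2 differences between population means (x axis) for the 10 factors (y axis) in the 3 comparisons; points are estimates and lines 95% intervals from limma, with Nr4a3, Nr4a2 and Egr2 in black and the other 7 in orange. The black points reach 5.50, 3.56 and 6.29 in the 3 panels, and the orange points stay between -1.94 and 0.66.

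Set beside each other, the factors spanned very different ranges. The distance between the highest and the lowest population mean was 6.29 log2 units for Nr4a3, 4.50 for Egr2, 2.17 for Nr4a2 and 1.94 for Fos, then 0.87 for Jun, 0.73 for Fosb, 0.66 for Egr1, 0.51 for Egr3, 0.48 for Nr4a1 and 0.30 for Junb. The median over all genes was 0.251, and 4 of the 10 factors and 9.43% of all genes exceeded 1 log2 unit. That count includes Nr4a3, Egr2 and Nr4a2, which were chosen for their differences, so nothing is read from it. Among the other 7 factors only Fos exceeded 1 log2 unit. Of the other 7 factors, the range of differences was -1.94 to 0.28 in GM-BMDC against GM-BMM (median -0.30), -0.09 to 0.66 in GM-BMM against M-BMM (median 0.28) and -1.40 to 0.51 in GM-BMDC against M-BMM (median 0.30). The medians of all genes in these comparisons were 0.02, -0.02 and -0.00241.

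The genes nearest to Nr4a3 in pattern were looked for by the root mean square difference of mean-centred log2 values over the 6 arrays. They were Apol7c of the apolipoprotein L family (0.268), the chemokine receptor gene Ccr7 (0.475), the tight-junction gene Cldn1 (0.514), the membrane metalloproteinase gene Mmp25 (0.545) and the semaphorin gene Sema6d (0.551). The nearest to Nr4a2 were Tmem39a (0.0596), the Myc relative Bmyc (0.0766), the corepressor gene Cbfa2t3 (0.0934), Sinhcaf (0.106) and Cmc2 (0.122). To Egr2 the nearest were the helix-loop-helix repressor gene Bhlhe40 (0.353), Olr1 for a receptor of oxidised LDL (0.371), Clec7a for the beta-glucan receptor dectin-1 (0.390), the protease inhibitor gene Spint1 (0.396) and the chemokine gene Ccl5 (0.407). The nearest neighbours of Egr2 were thus also lower in M-BMM, as with Bhlhe40 at 10.40 in GM-BMDC, against 9.08 in GM-BMM and 5.83 in M-BMM on average. These distances describe 6 arrays of 3 populations and the genes were picked from the whole array for being close.

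Over all genes, 4.69% rose and 5.74% fell in GM-BMDC against GM-BMM, 3.62% and 2.57% in GM-BMM against M-BMM, and 7.76% and 8.9% in GM-BMDC against M-BMM, the shares to set beside the counts of the related lists. Of 11 other AP-1 and ATF genes, 1 rose and 0 fell in GM-BMDC against GM-BMM, 1 rose and 1 fell in GM-BMM against M-BMM, and 3 rose and 2 fell in GM-BMDC against M-BMM, with medians of -0.24, 0.05 and 0.07 log2 units. In the first comparison 1 fell without GM-BMM replicate 1, and in the second 0 fell without GM-BMM replicate 1 or either M-BMM array and 2 without GM-BMM replicate 2. Fosl2, which encodes Fra-2, measured 9.17 and 9.20 in GM-BMDC, against 9.39 and 9.06 in GM-BMM and 7.76 and 7.83 in M-BMM. Both GM-CSF populations were thus above M-BMM, with rises of 1.39 ± 0.14 in GM-BMDC and 1.43 ± 0.14 in GM-BMM (limma adjusted p = 0.000659 and 0.00124). Batf3, a partner of JUN proteins needed for type 1 conventional dendritic cells, rose in GM-BMDC by 1.40 ± 0.18 over GM-BMM and 1.25 ± 0.18 over M-BMM (limma adjusted p = 0.00352 and 0.00347). Batf fell by 1.52 in GM-BMDC against M-BMM (SE 0.20, limma adjusted p = 0.00229), and Jdp2, a repressor of AP-1 sites, fell by 0.64 in GM-BMM against M-BMM (SE 0.12, limma adjusted p = 0.0258; 5 alternatives ended this call). Jund and Fosl1 did not pass, with 0.37 and -0.27 log2 units between GM-BMDC and GM-BMM (limma adjusted p = 0.159 and 0.220).

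Of 23 other immediate-early genes, 4 rose and 3 fell in GM-BMDC against GM-BMM, 5 rose and 1 fell in GM-BMM against M-BMM, and 6 rose and 2 fell in GM-BMDC against M-BMM. Their medians were 0.07, 0.12 and 0.17 log2 units. In the first comparison 1 rose without GM-BMDC replicate 1 and 2 without GM-BMM replicate 1. In the second 2 rose without either M-BMM array and 3 without GM-BMM replicate 1, and 3 fell without GM-BMM replicate 2. In the last 2 rose and 1 fell without either M-BMM array. Arc, best known from neuronal synapses, measured 7.84 and 7.11 in GM-BMDC against 5.95 and 6.12 in GM-BMM and rose by 1.44 ± 0.22 (limma adjusted p = 0.00731). Its M-BMM values were 6.08 and 6.20. Ptgs2, the inducible prostaglandin synthase, was highest in GM-BMM: it fell by 2.30 in GM-BMDC against GM-BMM (SE 0.23, limma adjusted p = 0.00125) and rose by 2.44 ± 0.23 in GM-BMM against M-BMM (adjusted p = 0.00119). Plk3 rose by 1.80 ± 0.14 and the kinase gene Sik1, a CREB target, fell by 1.41 (SE 0.14) in GM-BMM against M-BMM (limma adjusted p = 0.000580 and 0.00152). The fourth EGR gene, Egr4, did not pass in any comparison (-0.05, 0.15 and 0.10 log2 units, limma adjusted p = 0.908, 0.719 and 0.774).

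Of 12 inhibitors that ERK signalling or EGR factors induce in return, 1 rose and 1 fell in GM-BMDC against GM-BMM, 0 passed in GM-BMM against M-BMM by limma (3 at an unadjusted p under 0.05), and 1 rose and 2 fell in GM-BMDC against M-BMM, with medians of -0.15, 0.13 and 0.06 log2 units. The share of all genes under the unadjusted threshold was not taken, so nothing is read from those 3. In the first comparison 2 fell when either GM-BMDC array was left out and 0 when a GM-BMM or M-BMM array was. In the second 2 rose without either GM-BMDC array and 1 without GM-BMM replicate 1. In the last 1 fell without GM-BMDC replicate 1 and 0 without either M-BMM array, and 2 rose and 3 fell without GM-BMDC replicate 2. Dusp5, a nuclear ERK phosphatase, measured 10.23 and 9.74 in GM-BMDC, against 7.58 and 6.93 in GM-BMM and 6.77 and 7.07 in M-BMM. GM-BMDC lay above all other arrays, and the macrophage populations overlapped. It rose by 2.73 ± 0.25 over GM-BMM and by 3.06 ± 0.25 over M-BMM (limma adjusted p = 0.000811 and 0.000308). Dusp6, a cytoplasmic ERK phosphatase, fell by 1.87 in GM-BMDC against GM-BMM (SE 0.44, limma adjusted p = 0.0370), with its GM-BMDC arrays 1.61 apart. That call ended without either GM-BMM array, in a fit of the 2 groups compared and with a trended, robust variance. Leaving out either M-BMM array gives that same 2-group fit for this comparison. The EGR corepressor Nab2 differed by 0.15 (GM-BMDC against GM-BMM), 0.20 (GM-BMM against M-BMM) and 0.35 (GM-BMDC against M-BMM), and none passed (limma adjusted p = 0.595, 0.519 and 0.134), while Nab1 fell by 0.74 in GM-BMDC against M-BMM (SE 0.16, limma adjusted p = 0.0207), a call that ended in 5 alternatives, among them without GM-BMDC replicate 1 or either M-BMM array.

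Of 17 upstream factors and dimer partners, 2 rose and 1 fell in GM-BMDC against GM-BMM, 1 rose and 0 fell in GM-BMM against M-BMM, and 5 rose and 1 fell in GM-BMDC against M-BMM, with medians of 0.03, 0.09 and 0.17 log2 units. In the first comparison 1 rose and 0 fell without GM-BMDC replicate 1, GM-BMM replicate 2 or either M-BMM array. In the second 0 rose without either M-BMM array, and 2 rose and 1 fell without either GM-BMDC array. In the last 2 rose without GM-BMDC replicate 1 or either M-BMM array, 3 rose and 2 fell without GM-BMDC replicate 2, and 0 fell without M-BMM replicate 2. Mrtfa, an actin-regulated coactivator of SRF, rose by 1.28 ± 0.16 in GM-BMDC over GM-BMM (limma adjusted p = 0.00302), and the CREB coactivator genes Crtc2 and Crtc3 rose by 1.13 ± 0.15 and 0.95 ± 0.12 in GM-BMDC over M-BMM (limma adjusted p = 0.00273 and 0.00175). The RXR genes, whose proteins pair with NR4A1 and NR4A2 but not with NR4A3, did not pass: in GM-BMDC against GM-BMM the differences were -0.72 for Rxra, 0.03 for Rxrb and -0.07 for Rxrg (limma adjusted p = 0.167, 0.934 and 0.836), and Rxrg was low in all populations. Of 10 measured heat-shock genes, 0 rose and 1 fell in GM-BMDC against GM-BMM, 1 rose and 0 fell in GM-BMM against M-BMM, and 0 rose and 2 fell in GM-BMDC against M-BMM, with medians of -0.06, -0.11 and -0.06 log2 units. None of these heat-shock calls held in every fit that left out 1 array: 0 passed in the first comparison without GM-BMM replicate 2, in the second when a GM-BMM or M-BMM array was left out, and in the last without GM-BMDC replicate 1 or either M-BMM array.

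**Figure D4:**
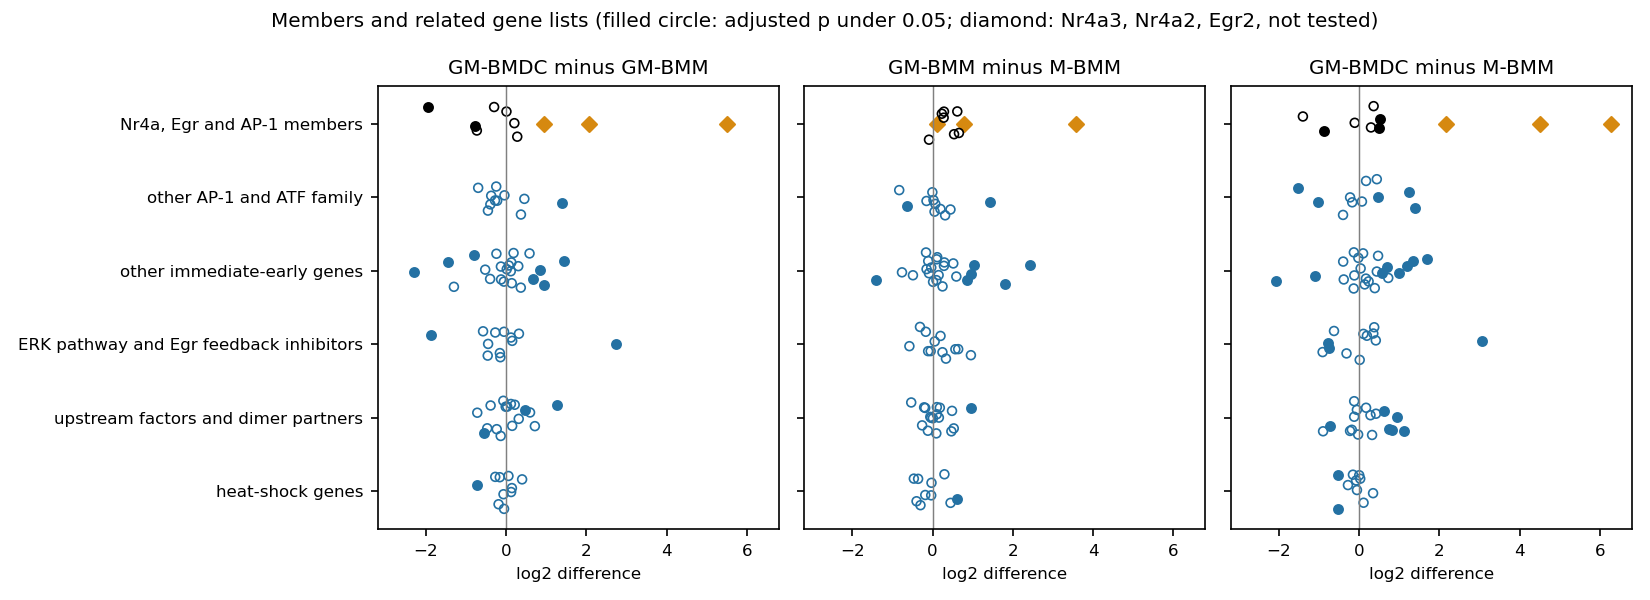
Log2 differences (x axis) of single genes in the 10 members and 5 related lists (y axis, jittered within a list) for the 3 comparisons; filled circles passed limma's adjusted p under 0.05, open circles did not, and diamonds are Nr4a3, Nr4a2 and Egr2, for which no test is shown. The diamonds reach 5.50, 3.56 and 6.29, while the other circles lie between -2.30 and 3.06.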

How the data were processed

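Per the submitters' processing notes, the authors made the deposited log2 values with Affymetrix Expression Console 1.1 and RMA. The genome build behind them is not given in the sources used here. The table held 35556 probe sets, of which 21789 had 1 annotated gene, 1621 several and 12146 none. Only the first kind was used, and of several probe sets for a gene the one with the highest mean over 6 arrays, which left 19938 genes.

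All comparisons were fitted on the whole gene table and 6 arrays by limma (3.58.1, R 4.3.3; 3 residual and 4.34 prior degrees of freedom, two-sided, Benjamini-Hochberg adjustment over all genes of a comparison at 0.05), with no filter and no pseudocount. With 2 arrays in a group, their number sets the precision, and a difference had a standard error of 0.132 (median over genes). The fit was tested on simulated data. Tables, motif searches and figures were made in Python 3.11.15 (NumPy 2.4.6, pandas 2.3.3, matplotlib 3.10.9).

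The members, the 5 related lists and the markers were chosen with earlier results of these data known. Named genes are all members, up to 3 passing genes with the largest difference per list and comparison, AP-1, EGR, NAB and RXR relatives, the 5 nearest genes of each of 3 members, and label checks. Hspa1b, Hsp90ab1 and Ddx3y were not analysed here. Alternatives left out arrays, added the replicate number or Y-linked genes to the fit, and changed the groups fitted, the variance model, scaling, filter and probe set rule. Crossing the M-BMM numbers was added after seeing the data.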

Additional observations from a re-analysis of the deposited data

How the results depend on the processing

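Over 16 alternatives, Nr4a3 and Nr4a2 stayed higher in GM-BMDC than in GM-BMM and M-BMM, and Egr2 stayed higher in both GM-CSF populations than in M-BMM. The values of the other 7 factors are less settled. In a fit of the 2 groups compared, 0 of these 7 passed in GM-BMDC against GM-BMM. In that fit 1 was higher in GM-BMM than in M-BMM, and 2 were higher and 2 lower in GM-BMDC against M-BMM. The counts of factors passing that follow also include Nr4a3, Nr4a2 and Egr2, which were chosen for their differences. The number of factors passing ranged from 2 to 6 (GM-BMDC against GM-BMM), 1 to 3 (GM-BMM against M-BMM) and 3 to 7 (GM-BMDC against M-BMM) when 1 array was left out, beside 4, 1 and 6 with all arrays. The number of all genes passing ranged from 1102 to 2055, 319 to 1347 and 1288 to 3412, beside 2079, 1235 and 3323. In GM-BMDC against GM-BMM the factors passing were 2 without GM-BMDC replicate 1, GM-BMM replicate 2 or either M-BMM array, in GM-BMDC against M-BMM 3 without GM-BMDC replicate 1 or either M-BMM array, and in GM-BMM against M-BMM 3 without either GM-BMDC array and 2 without GM-BMM replicate 1. Fitting the 2 groups compared gave 1207 genes and 2 factors in GM-BMDC against GM-BMM, and 3 factors in GM-BMM against M-BMM. With the Y-linked covariate, 2 factors passed in GM-BMM against M-BMM, and 2114 genes passed in GM-BMDC against M-BMM. The replicate differences of the groups correlated over genes by 0.02 (GM-BMDC with GM-BMM), -0.13 (GM-BMDC with M-BMM) and 0.03 (GM-BMM with M-BMM), and nothing in the labels pairs the numbers. With the replicate block, the factors passing numbered 4, 2 and 5, and Nr4a1 and Egr3 did not pass in GM-BMDC against M-BMM (limma adjusted p = 0.0511 and 0.0609), while Fos passed there (0.00463) and Egr1 passed in GM-BMM against M-BMM (0.0494). With the M-BMM numbers crossed in the block they numbered 5, 1 and 7. Leaving out an array of the group outside a comparison keeps its differences unchanged. It gives the fit of the 2 groups compared, with another estimate of the spread. The cause of the other shifts was not tested. Other scalings moved the median of all genes by at most 0.0550 log2 units.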

Other observations

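The arrays of GM-BMM differed from each other in the AP-1 factors. Replicate 2 lay above replicate 1 by 1.24 log2 units in Fos, 1.13 in Fosb, 0.46 in Jun and 0.39 in Junb, and 0.732%, 0.948%, 7.46% and 10.7% of all genes had a larger gap in that population. In the other direction, Egr2 lay 0.61 lower in replicate 2, and Nr4a1, Nr4a3 and Egr1 differed by less than 0.05. The phosphatase gene Dusp1, chosen after its values were seen, measured 10.11 and 11.59 in GM-BMM, and the NF-kappaB modulator gene Nfkbiz, chosen in the same way, 8.86 and 10.10. These have the largest positive gaps of their lists, and Dusp5 and Ier3 have the largest negative ones (-0.66 and -0.61). Replicate 2 lay above replicate 1 in 9 of the 12 ERK and EGR feedback inhibitors and 15 of the 23 other immediate-early genes. It did so in 10 of the 11 other AP-1 and ATF genes, 7 of the 17 upstream factors and partners and 9 of the 10 measured heat-shock genes. The median gap of all genes was 0.03. The share of all genes with replicate 2 above was not taken, so nothing is read from these counts. Gaps over 0.5, a size that 6.35% of all genes exceeded, numbered 2, 4, 2 and 1 in the first 4 lists. The heat-shock genes had gaps of -0.06 to 0.29 there, none over 0.5. In GM-BMDC, Fos lay 0.75 higher in replicate 2 and Nr4a3 0.72 lower, and Adgre1, which encodes the F4/80 of the sort gate, measured 9.39 and 10.91 in replicates 1 and 2. The part of other cells in these gaps was not tested.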
